A study of Homo sapiens with 10 samples.

Results

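The genes grouped here as mitogen-activated protein kinase (MAPK) output and feedback genes include the 23 measured dual-specificity phosphatase (DUSP) genes, 4 Sprouty genes and 3 SPRED genes. The others are the ETS factors ETV1, ETV4 and ETV5, the early response gene IER3, and PHLDA1 and PHLDA2. Of the DUSP genes 13 are atypical and lack the MAPK docking domain of the classical ones. The choice went by gene symbol and gave 36 genes, each with 1 probe set, of 17492 named genes on the array. RNA of A375 cells, an established human skin melanoma line whose mutant BRAF keeps the MAPK pathway switched on, was measured on 10 Clariom S arrays. Doxycycline (2 µg/ml) was present from plating in the cells of 5 arrays and absent in the control cells of the other 5, and both were frozen on day 4. The series title names Omomyc, an inhibitor derived from MYC that blocks the binding of MYC and its partner MAX to DNA. The labels describe neither the construct nor how many clones were used, no array came from doxycycline-treated cells said to lack Omomyc, and effects of doxycycline and of Omomyc cannot be told apart.

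In this pathway RAS activates RAF kinases, RAF activates MEK and MEK activates ERK, which enters the nucleus and switches on genes. Several of those genes encode brakes on the same pathway. Many DUSP phosphatases remove phosphate from ERK or from the related stress kinases JNK and p38. Sprouty proteins act between growth factor receptors and RAS, and SPRED proteins bring the RAS inhibitor neurofibromin (NF1) to the membrane. In melanoma with mutant BRAF the transcripts of DUSP4, DUSP6, SPRY2, SPRY4, ETV4, ETV5 and PHLDA1 are widely read as markers of ERK output.

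Across the 36 genes, doxycycline-treated cells had higher signal for 13 and lower signal for 8, and 15 did not pass the test (limma, Benjamini-Hochberg adjusted p under 0.05). Of all 18569 probe sets 38.1% passed, 20.9% as higher and 17.2% as lower, against 58.3% of the 36 genes. With probe sets under the median signal left out, 60.2% of the 9285 left passed, and 17 of the 25 genes left. The median log2 fold change of the 36 genes was 0.09 against 0.04 over all probe sets, and the median size of change was 0.37 against 0.20. Groups did not overlap in 17 of the genes, 12 higher and 5 lower with doxycycline, where the background was 28.6% of all probe sets (14.9% higher and 13.6% lower). Among the DUSP genes 6 of 23 rose and 6 fell, and among the other genes 7 of 13 rose and 2 fell. The usual ERK output markers were divided, with DUSP4, DUSP6, SPRY2, ETV5 and PHLDA1 not passing, SPRY4 higher and ETV4 lower. PHLDA2 was the single gene that passed with a change of at least 1 log2 unit, as 6.47% of all probe sets did.

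**Figure D1:**
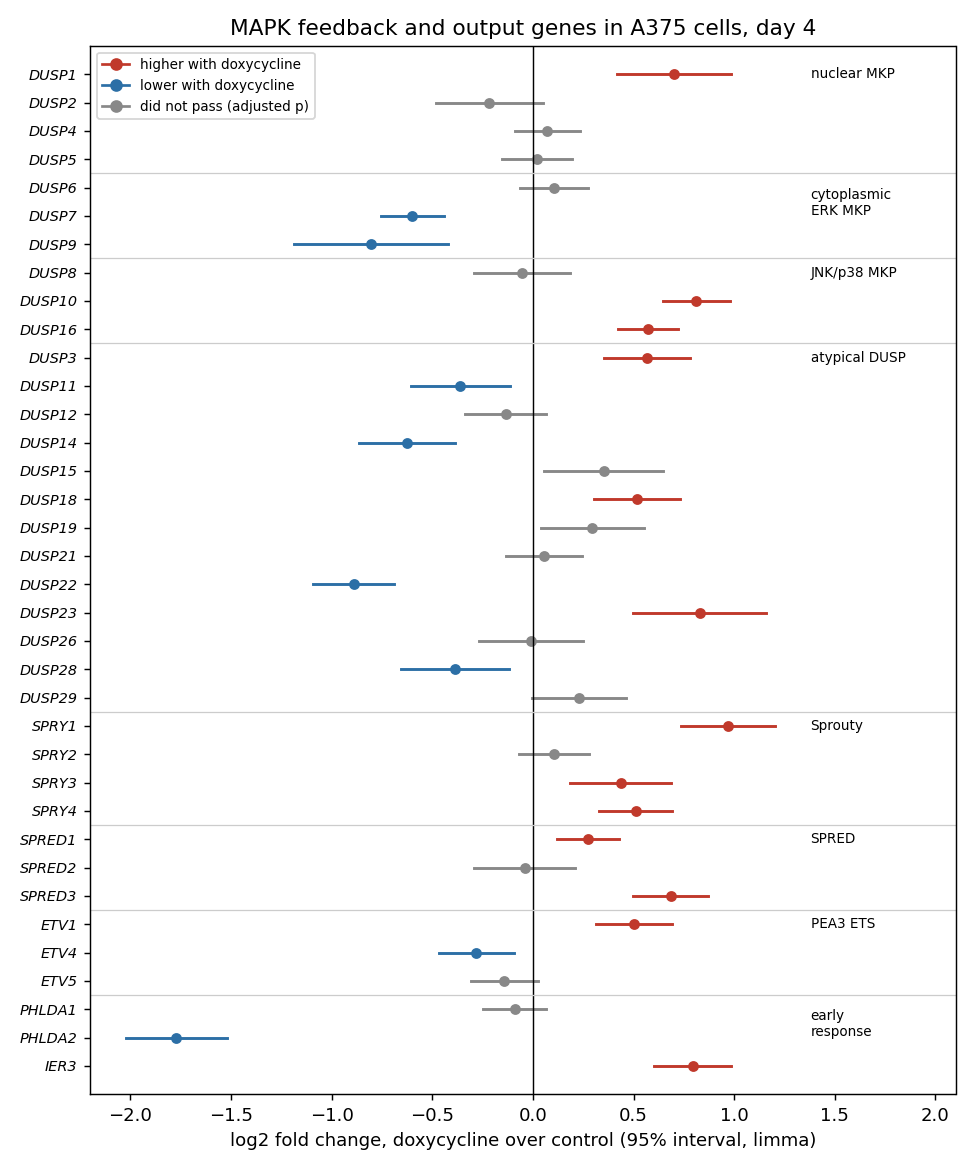
Log2 fold change of doxycycline over control for the 36 genes (points, x axis) with the 95% interval of limma (lines), 5 arrays per group, grouped by role; MKP stands for MAPK phosphatase. Red genes were higher and blue genes lower at an adjusted p under 0.05, and grey genes did not pass; PHLDA2 at -1.77 and SPRY1 at 0.97 mark the ends.

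Signal on the 10 arrays was even, with medians of 5.02 to 5.10 log2 units and correlations over all probe sets of 0.990 to 0.997 within groups and 0.970 to 0.976 between them. Of the melanocyte lineage factors, SOX10 averaged 8.91 log2 units with doxycycline and 8.71 in control and did not pass (adjusted p = 0.102, limma), while MITF (1.21) and PAX3 (0.88) rose (log2 fold changes). The pigment genes MLANA, PMEL, TYR and TYRP1 averaged less than 2.80, the lowest first quartile of any array. Of 9 lineage markers 5 rose, TYR from that dim level among them, and none fell, with a mean level over the list of 5.52 to 5.64 on doxycycline arrays and 5.19 to 5.30 on control arrays. Of the 5 fibroblast markers 4 rose and none fell, with a mean level of 4.92 to 5.05 on doxycycline arrays and 4.15 to 4.41 on control arrays. LUM (1.52) and PDGFRB (1.16) had the largest log2 fold changes among them. The endothelial list had a mean level of 3.28 to 3.63 on doxycycline arrays and 2.95 to 3.23 on control arrays. Its receptor gene KDR averaged 6.88 with doxycycline and 5.70 in control and rose (log2 fold change 1.18), the other 4 members did not pass, and 3 of 5, PECAM1, CDH5 and TEK, averaged below 2.80. In the epithelial list 1 of 5 fell, KRT8 (-0.84), none rose, EPCAM and CDH1 averaged below 2.80, and the mean level was 4.60 to 4.80 with doxycycline and 4.72 to 4.97 in control. All 4 keratinocyte markers averaged below that quartile over the 10 arrays, with KRT5 higher (0.39) and a mean level of 2.52 to 2.77 with doxycycline and 2.44 to 2.75 in control. Of 4 leukocyte markers CD14 rose (0.51), the other 3, PTPRC, CD3E and ITGAM, averaged below 2.80, and the mean level was 2.55 to 2.75 with doxycycline and 2.40 to 2.62 in control. The part of these markers in the results was not tested, and in RNA of a whole culture fewer cells of a kind and less RNA per cell cannot be told apart.

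The promoters were searched for the E-box CACGTG, the site that MYC and MAX bind, and the windows of the 5 genes that held it are shown because the title names an inhibitor of that binding. Windows run from 250 bases before to 50 after an annotated transcription start (RefSeq, GRCh38.p14), and 28 of the 36 genes were matched, with 48 windows. Of the matched genes 11 had several windows, and overlapping windows can count 1 site more than once. The ETV1 windows that start at 13990653 and 13990657 share a site of the motif CCGGAA. DUSP4, DUSP5, DUSP12, DUSP26, ETV4, ETV5, IER3 and PHLDA2 were not matched. Capitals mark CACGTG and the cyclic AMP response element TGACGTCA.
DUSP1, chr5:172771146-172771445, minus strand: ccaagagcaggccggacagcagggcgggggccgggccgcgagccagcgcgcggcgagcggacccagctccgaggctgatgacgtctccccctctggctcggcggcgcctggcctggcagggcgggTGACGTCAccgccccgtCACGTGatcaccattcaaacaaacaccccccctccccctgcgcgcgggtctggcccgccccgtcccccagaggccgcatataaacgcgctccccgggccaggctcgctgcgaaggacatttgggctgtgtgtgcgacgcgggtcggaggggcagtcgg
DUSP2, chr2:96145391-96145690, minus strand: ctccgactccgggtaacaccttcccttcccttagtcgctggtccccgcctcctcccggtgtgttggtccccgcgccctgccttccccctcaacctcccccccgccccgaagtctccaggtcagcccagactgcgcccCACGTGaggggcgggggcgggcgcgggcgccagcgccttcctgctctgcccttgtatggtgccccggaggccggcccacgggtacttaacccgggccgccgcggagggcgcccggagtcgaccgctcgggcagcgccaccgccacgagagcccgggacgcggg
DUSP23, chr1:159780712-159781011, plus strand: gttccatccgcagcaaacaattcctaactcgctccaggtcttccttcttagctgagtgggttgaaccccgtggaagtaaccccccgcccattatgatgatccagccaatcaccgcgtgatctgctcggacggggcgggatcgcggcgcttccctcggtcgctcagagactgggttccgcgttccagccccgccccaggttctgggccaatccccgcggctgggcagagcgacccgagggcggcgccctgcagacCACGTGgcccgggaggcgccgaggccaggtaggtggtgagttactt
DUSP28, chr2:240560107-240560406, plus strand: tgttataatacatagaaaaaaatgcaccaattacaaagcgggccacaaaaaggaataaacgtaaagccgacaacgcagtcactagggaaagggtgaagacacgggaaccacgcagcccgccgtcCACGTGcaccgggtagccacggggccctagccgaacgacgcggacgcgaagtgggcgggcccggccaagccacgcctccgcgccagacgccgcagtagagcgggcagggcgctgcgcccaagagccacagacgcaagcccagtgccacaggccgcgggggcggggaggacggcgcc
ETV1, chr7:13991376-13991675, minus strand: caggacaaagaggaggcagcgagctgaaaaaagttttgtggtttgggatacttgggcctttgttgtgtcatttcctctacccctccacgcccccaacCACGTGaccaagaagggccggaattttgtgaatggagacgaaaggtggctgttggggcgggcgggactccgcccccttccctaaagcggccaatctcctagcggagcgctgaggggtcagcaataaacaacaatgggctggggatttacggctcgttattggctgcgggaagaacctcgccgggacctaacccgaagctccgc
CACGTG lay from -108 to -103 relative to the start site in DUSP1, from -113 to -108 in DUSP2, from 5 to 10 in DUSP23, from -126 to -121 in DUSP28 and from -153 to -148 in ETV1. Of these genes DUSP1, DUSP23 and ETV1 rose, DUSP28 fell and DUSP2 did not pass. The share of windows with CACGTG was 10.4% (5 of 48) for the 36 genes and 7.26% of all 35116 windows. TGACGTCA was in 2 of 48 windows (4.17%, DUSP1 and DUSP8) and in 1.85% of all. The core of ETS factor sites, CCGGAA, was in 7 of 48 windows (14.6%, DUSP15, ETV1, PHLDA1, SPRY1 and SPRY2) and in 17.2% of all, and the AP-1 motif TGANTCA in 3 of 48 (6.25%, SPRED2, SPRED3 and SPRY3) and in 7.71% of all. In all 11 strings were searched, and these 4 were chosen for description after the counts of all 11 had been seen. Of the other 7, GGGCGG, the core of the GC box, was in 32 of 48 windows (66.7%) and in 45.0% of all. TGACGTC was in 3 of 48 windows (6.25%) and in 3.45% of all, TGACTCA was in 3 (6.25%) and in 4.95% of all, and TATAAA was in 3 (6.25%) and in 11.5% of all. The 3 remaining strings were in 0 of 48 windows: CCGGAAGT was in 4.14% of all, CACTTCCGG was in 2.36% and CATCGCAC was in 0.219%. Both strands were searched, and some strings overlap: TGACGTC lies within TGACGTCA, TGACTCA is a form of TGANTCA, and both of the longer ETS strings hold CCGGAA on one strand. A match is a run of letters and not a shown binding site.

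The inducible nuclear phosphatases, which ERK or stress signals switch on, were represented by DUSP1, DUSP2, DUSP4 and DUSP5, and DUSP1 alone passed the test. DUSP1 inactivates p38, JNK and ERK and responds within minutes to stress and serum. Its log2 signal was 6.52, 6.34, 5.88, 5.93 and 6.16 on doxycycline arrays 1 to 5, against 5.33, 5.63, 5.68, 5.51 and 5.19 on control arrays 1 to 5. All doxycycline arrays lay above all control arrays, and the log2 fold change was 0.70 ± 0.13 (SE, adjusted p = 5.78e-04, limma). DUSP4, which ERK induces and which acts back on ERK and JNK, read 9.99, 9.93, 9.87, 9.90 and 9.79 with doxycycline, against 9.79, 9.71, 9.85, 9.87 and 9.90 in control. These ranges overlapped widely, and the 95% interval of the ratio of doxycycline to control was 0.939 to 1.18. DUSP5, a nuclear phosphatase specific for ERK, averaged 7.48 ± 0.12 with doxycycline and 7.46 ± 0.07 in control (SD, n = 5 each), with a ratio between 0.898 and 1.15. DUSP2, known mostly from lymphocytes, averaged 3.81 ± 0.26 with doxycycline and 4.03 ± 0.17 in control (SD, n = 5 each) and did not pass (adjusted p = 0.196, limma), though it did without doxycycline array 4 (adjusted p = 0.0471, limma).

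Of the cytoplasmic phosphatases of ERK, DUSP7 and DUSP9 fell and DUSP6 did not pass. DUSP6, the best known readout of ERK activity, had log2 signals of 10.28, 10.04, 10.03, 10.07 and 9.96 on doxycycline arrays 1 to 5, against 9.94, 9.95, 10.0, 9.99 and 9.97 on control arrays. Doxycycline array 1 stood highest, the other arrays of that group lay within or just above the control range, and the ratio had a 95% interval of 0.956 to 1.21. DUSP7 read 5.42, 5.38, 5.31, 5.49 and 5.37 with doxycycline, against 5.94, 6.10, 5.97, 5.98 and 5.97 in control. All doxycycline values lay below all control values, which made DUSP7 1.51-fold lower (log2 fold change -0.60 ± 0.07 SE, adjusted p = 1.10e-05, limma). DUSP9, a relative that is best known from placenta and kidney, fell by 0.80 ± 0.18 on the log2 scale (adjusted p = 0.00220, limma). It was dim and scattered, with 2.65 to 3.47 on doxycycline arrays and 3.46 to 4.42 on control arrays, which just overlapped.

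Of the phosphatases that favour JNK and p38, DUSP10 and DUSP16 rose and DUSP8 did not pass. DUSP10, which inactivates both stress kinases, read 8.70, 8.52, 8.45, 8.57 and 8.51 on doxycycline arrays, against 7.85, 7.71, 7.70, 7.71 and 7.73 on control arrays. The gap between the groups was several times the SD within either, and DUSP10 was 1.76-fold higher (log2 fold change 0.81 ± 0.08 SE, adjusted p = 7.11e-07, limma). DUSP16, which holds JNK back and shuttles between nucleus and cytoplasm, read 6.12, 6.19, 6.15, 6.16 and 6.08 with doxycycline, against 5.51, 5.57, 5.58, 5.55 and 5.61 in control. It had the smallest spread of the genes that rose and was 1.49-fold higher (log2 fold change 0.57 ± 0.07 SE, adjusted p = 9.32e-06, limma). DUSP8, a JNK phosphatase of brain and heart, was dim in both groups, at 3.20 ± 0.20 with doxycycline and 3.26 ± 0.17 in control (SD, n = 5 each).

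**Figure D2:**
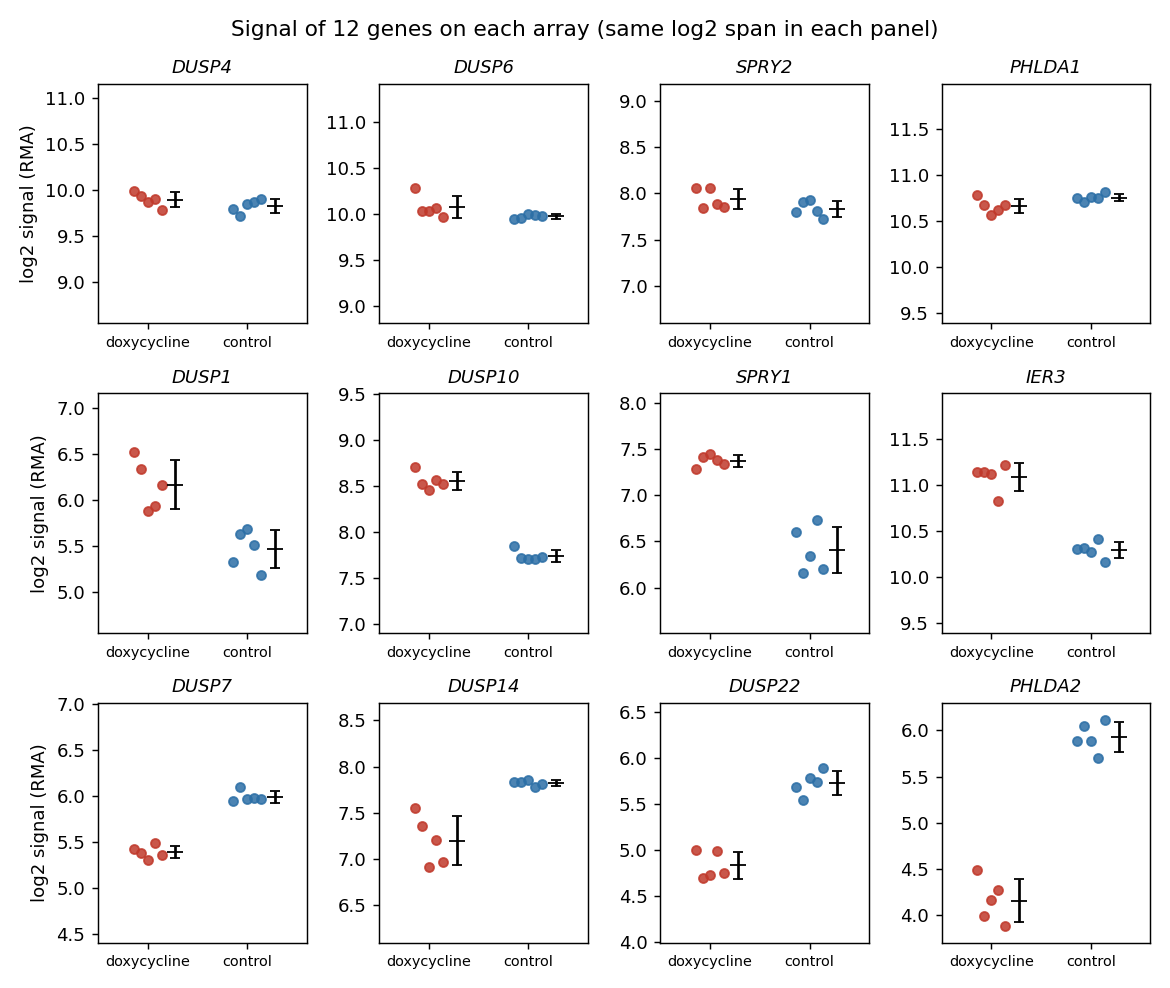
Log2 signal (y axis, the same span in each panel) of 12 of the genes on each of the 5 doxycycline arrays (red, left) and 5 control arrays (blue, right), with the mean and SD in black. The top row holds genes that did not pass, such as DUSP6 at 10.08 with doxycycline and 9.97 in control; the middle row genes that rose, such as DUSP10; and the bottom row genes that fell, such as PHLDA2 at 4.15 with doxycycline and 5.93 in control.

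The 13 small atypical DUSP genes, which lack the MAPK docking domain of the classical ones, went both ways, with 3 higher and 4 lower. DUSP23 read 7.96, 7.81, 7.11, 7.62 and 7.59 on doxycycline arrays, against 7.05, 6.52, 7.10, 6.71 and 6.57 on control arrays. The lowest doxycycline array was barely above the highest control array, so the groups were only just apart, with a log2 fold change of 0.83 ± 0.16 (SE, adjusted p = 5.50e-04, limma). DUSP3, a phosphatase of ERK and JNK, averaged 8.03 ± 0.19 with doxycycline and 7.46 ± 0.11 in control (SD, n = 5 each), 1.48-fold higher (adjusted p = 3.14e-04, limma). DUSP18, found in mitochondria, averaged 4.73 ± 0.14 with doxycycline and 4.22 ± 0.17 in control (SD, n = 5 each; adjusted p = 6.70e-04, limma).

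Among the atypical genes that fell, DUSP22, a regulator of JNK and of T-cell receptor signalling, read 5.0, 4.70, 4.73, 4.99 and 4.75 with doxycycline, against 5.68, 5.54, 5.78, 5.74 and 5.88 in control. The groups were well apart and DUSP22 was 1.85-fold lower (log2 fold change -0.89 ± 0.09 SE, adjusted p = 2.24e-06, limma). DUSP14, which acts on the kinase TAK1, read 7.54, 7.35, 6.91, 7.21 and 6.96 on doxycycline arrays, against 7.83, 7.84, 7.86, 7.78 and 7.81 on control arrays. Control values were tight and doxycycline values wide, all of them lower, with a log2 fold change of -0.63 ± 0.11 (SE, adjusted p = 3.52e-04, limma). DUSP11, which removes phosphates from the ends of RNA rather than from proteins, fell by 0.36 ± 0.11 on the log2 scale (adjusted p = 0.0212, limma), and its groups overlapped. Without control array 2 its call was lost (adjusted p = 0.0602, limma). DUSP28 fell by 0.39 ± 0.12 on the log2 scale (adjusted p = 0.0228, limma), a call that was lost without control array 1 (0.0628), control array 4 (0.0535) or doxycycline array 4 (0.0593, adjusted p values of limma).

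The remaining atypical genes did not pass. DUSP12, a zinc-binding phosphatase linked to ribosome assembly, had a log2 fold change of -0.14. DUSP15 (0.35, adjusted p = 0.0585, limma) and DUSP19 (0.29, adjusted p = 0.0668, limma) had intervals above 0 before adjustment. DUSP15 read 5.04 on doxycycline array 1 and 5.49 to 5.77 on the other doxycycline arrays, against 4.87 to 5.35 in control, and passed without array 1 (adjusted p = 0.00546, limma). DUSP29 (0.23), DUSP26 (-0.01) and DUSP21 (0.06), genes best known from muscle, brain and testis, averaged below 2.80 log2 units in both groups, as did DUSP19.

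The receptor-level inhibitors were higher or did not pass, and none fell. SPRY1 had the largest rise of the 36 genes and read 7.28, 7.42, 7.45, 7.39 and 7.35 on doxycycline arrays, against 6.60, 6.16, 6.34, 6.73 and 6.20 on control arrays. The doxycycline values were tight and the control values wide, with no overlap, and SPRY1 was 1.96-fold higher (log2 fold change 0.97 ± 0.11 SE, adjusted p = 4.33e-06, limma). SPRY4, an ERK output marker, read 9.02, 8.74, 8.87, 8.80 and 8.98 with doxycycline, against 8.38, 8.35, 8.35, 8.24 and 8.52 in control. All arrays of the treated cells were above those of control, a 1.43-fold difference (log2 fold change 0.51 ± 0.08 SE, adjusted p = 1.93e-04, limma). SPRY2, the Sprouty gene most often used beside DUSP6 as an ERK marker, read 8.06, 7.84, 8.05, 7.88 and 7.85 with doxycycline, against 7.80, 7.90, 7.93, 7.81 and 7.72 in control. Its groups overlapped and the ratio had a 95% interval of 0.954 to 1.21. SPRY3, dimmer, rose by 0.44 ± 0.12 on the log2 scale (adjusted p = 0.00834, limma) with overlap of 1 doxycycline array and 1 control array.

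Of the SPRED genes, SPRED3 and SPRED1 rose and SPRED2 did not pass. SPRED3 read 6.41, 6.62, 6.32, 6.49 and 6.63 on doxycycline arrays, against 5.90, 5.65, 5.76, 5.89 and 5.85 on control arrays, so every treated array was above every control array. It was 1.61-fold higher (log2 fold change 0.68 ± 0.09 SE, adjusted p = 1.68e-05, limma). SPRED1, whose loss causes Legius syndrome, averaged 8.69 ± 0.04 with doxycycline and 8.42 ± 0.06 in control (SD, n = 5 each), a small rise of 0.27 log2 units without overlap (adjusted p = 0.00651, limma). SPRED2 read 7.25 on doxycycline array 1 and 7.77 to 7.92 on the other doxycycline arrays, against 7.61 to 7.84 on control arrays, and did not pass. Its log2 fold change was -0.04 with array 1 and 0.08 without it.

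Of the ETS factors of the PEA3 family, which carry receptor and ERK signals to growth genes, ETV1 rose, ETV4 fell and ETV5 did not pass. ETV1, which melanoma cells often express at a high level, read 9.54, 9.53, 9.58, 9.51 and 9.40 with doxycycline, against 8.98, 8.99, 8.92, 9.28 and 8.87 in control. Control array 4 was the highest control and still below all treated arrays, and ETV1 was 1.42-fold higher (log2 fold change 0.50 ± 0.09 SE, adjusted p = 3.12e-04, limma). ETV4 read 6.96, 7.17, 6.83, 6.81 and 6.82 on doxycycline arrays, against 7.24, 7.15, 7.20, 7.12 and 7.29 on control arrays. Only doxycycline array 2 reached the control range, and ETV4 fell by 0.28 ± 0.09 on the log2 scale (adjusted p = 0.0185, limma). ETV5 averaged 8.91 ± 0.08 with doxycycline and 9.05 ± 0.08 in control (SD, n = 5 each) and did not pass, with a 95% interval of the ratio of 0.809 to 1.02.

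PHLDA2 fell most of all 36 genes, and its relative PHLDA1 did not pass. PHLDA2, an imprinted gene known to restrain placental growth, read 4.48, 3.99, 4.16, 4.26 and 3.88 on doxycycline arrays, against 5.89, 6.05, 5.89, 5.70 and 6.11 on control arrays. The highest treated array was more than 1 log2 unit below the lowest control array, and PHLDA2 was 3.42-fold lower (log2 fold change -1.77 ± 0.12 SE, adjusted p = 1.58e-08, limma). In size this change ranked at the 98.7th percentile of all probe sets. PHLDA1, an ERK-induced gene, read 10.79, 10.67, 10.57, 10.62 and 10.68 with doxycycline, against 10.75, 10.71, 10.76, 10.75 and 10.82 in control, with a 95% interval of the ratio of 0.842 to 1.05. IER3, an early response gene that protects cells from death signals, read 11.14, 11.14, 11.12, 10.82 and 11.22 on doxycycline arrays, against 10.31, 10.32, 10.27, 10.42 and 10.17 on control arrays. It was 1.73-fold higher without overlap (log2 fold change 0.79 ± 0.09 SE, adjusted p = 4.56e-06, limma).

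**Figure D3:**
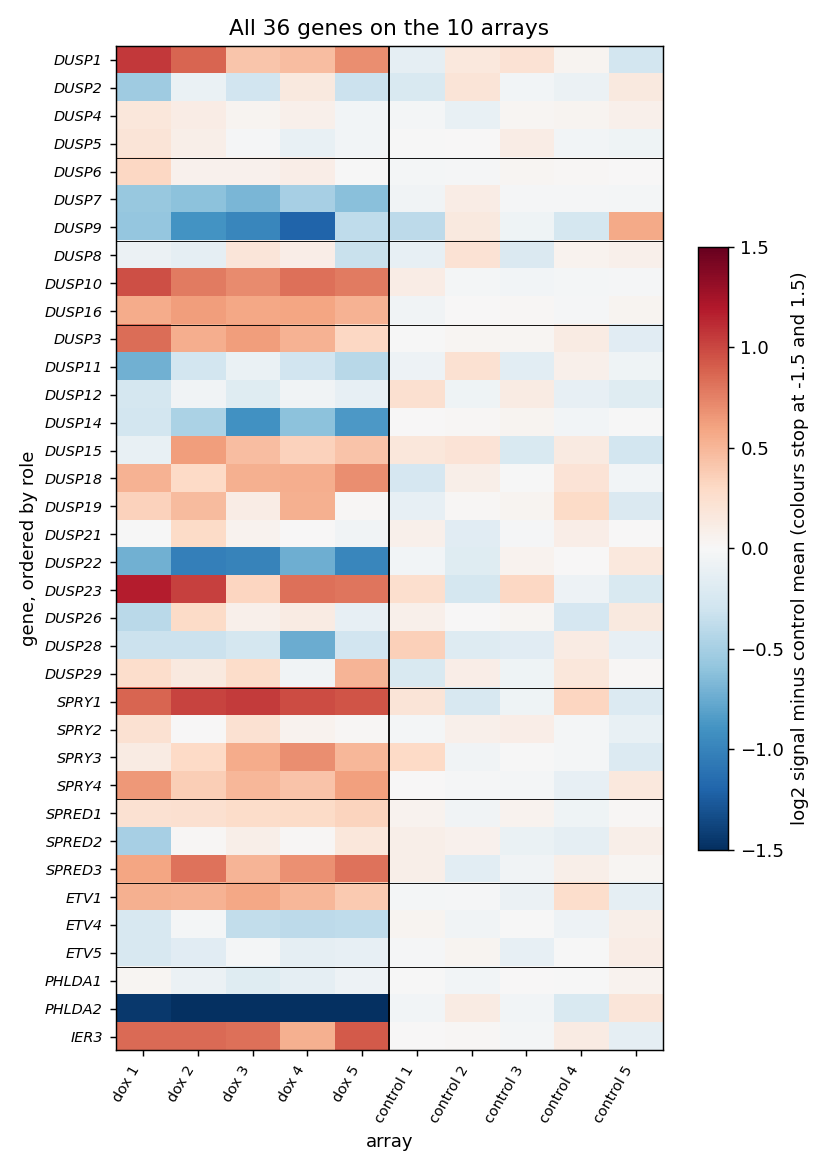
Log2 signal of each of the 36 genes (rows, ordered by role) on the 10 arrays (columns, doxycycline left, control right), minus the gene's control mean; red is higher and blue lower, and colours stop at -1.5 and 1.5. PHLDA2 is darkest blue, SPRY1, DUSP10, DUSP23 and IER3 are red in the treated arrays, and DUSP4, DUSP5, DUSP6 and PHLDA1 stay pale.

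Whether related genes changed unequally was tested in 6 pairs, by the difference of their log2 signals within each array and an exact permutation test over the 10 arrays (two-sided, Benjamini-Hochberg adjusted over the 6 pairs). The pairs were chosen with earlier results of these data known, so their p values are no independent evidence, and the smallest p this design allows is 0.00794. The log2 change of PHLDA1 exceeded that of PHLDA2 by 1.68 (exact permutation p = 0.00794, adjusted p = 0.0159). SPRY2 changed by 0.41 less than SPRY4 (-0.41, exact permutation p = 0.00794, adjusted p = 0.0159). SPRED1 changed by 0.31 more than SPRED2 at the same p values, and by 0.21 without doxycycline array 1, in which SPRED2 was low (adjusted exact permutation p = 0.0317). In these 3 pairs no doxycycline array overlapped a control array, but SPRY2 minus SPRY4 and SPRED1 minus SPRED2 were only just apart. For SPRY2 minus SPRY4 the highest doxycycline value was -0.816 and the lowest control value -0.802. For SPRED1 minus SPRED2 the lowest doxycycline value was 0.831 and the highest control value 0.818.

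Unequal change was not detected in the other pairs. The difference was -0.03 for DUSP4 against DUSP6 (exact permutation p = 0.444, adjusted p = 0.444) and -0.08 for DUSP5 against DUSP6 (exact permutation p = 0.135, adjusted p = 0.202). For ETV4 against ETV5 it was -0.14 (exact permutation p = 0.175, adjusted p = 0.210). A p that misses the threshold does not show that these pairs changed alike.

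**Figure D4:**
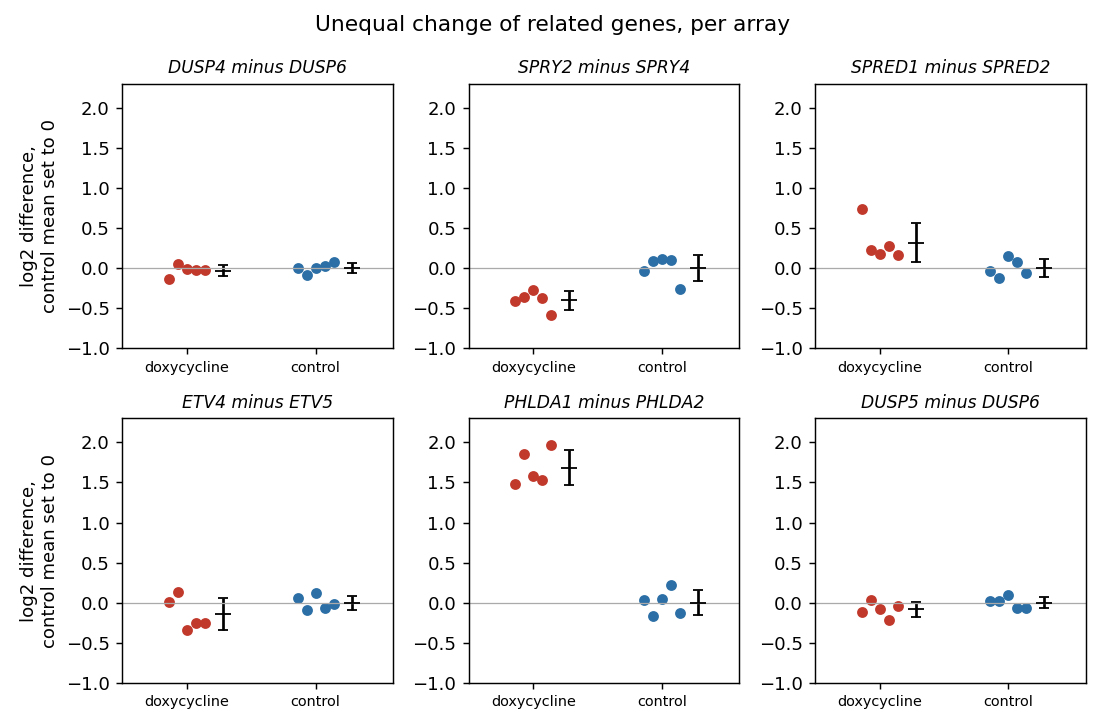
Difference of the log2 signals of 2 related genes within each array, with the control mean set to 0 (y axis), for 5 doxycycline arrays (red, left) and 5 control arrays (blue, right); black marks show the mean and SD. The groups are only just apart for SPRY2 minus SPRY4 and SPRED1 minus SPRED2, are well apart for PHLDA1 minus PHLDA2, where the shift is 1.68, and overlap in the other panels.

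Other genes of the pathway were read beside these. Of 20 measured genes of the RAS, RAF, MEK and ERK cascade 6 rose and 2 fell (median log2 fold change 0.03). The share called, 40.0%, was near the 38.1% of all probe sets. The kinases MAP2K1, which encodes MEK1 (-0.13), and MAPK3, which encodes ERK1 (-0.11), did not pass. RPS6KA2, a kinase downstream of ERK, had the largest change of any gene in these lists, with 3.58 ± 0.29 log2 units with doxycycline and 6.19 ± 0.19 in control (SD, n = 5 each; adjusted p = 1.53e-09, limma). HRAS fell (-0.61), and the adaptor SHC1 (0.68), the RAS inhibitors NF1 (0.54) and RASA2 (0.51) and the RAS exchange factor SOS2 (0.47) rose (log2 fold changes).

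The stress kinase list holds the JNK and p38 kinases, kinases above and below them and the ERK5 pair MAPK7 and MAP2K5. Of its 16 measured genes 5 rose and 4 fell (median 0.03), and 56.2% were called, against 38.1% of all probe sets. MAP2K6, which activates p38, averaged 6.32 ± 0.13 with doxycycline and 4.64 ± 0.16 in control (SD, n = 5 each; log2 fold change 1.68, adjusted p = 4.34e-09, limma). MAPK10, the neuronal JNK (0.72), MAP2K3, the other main activator of p38 (0.55), and the stress-activated MAP3K5 (0.52) rose too. MAPK12, a p38 isoform, fell (-1.43), as did MAPKAPK3, a kinase that p38 activates (-0.54), the ERK5 activator MAP2K5 (-0.27) and the JNK gene MAPK9 (-0.25).

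Of 15 other genes known to respond to ERK 6 rose and 6 fell (median 0.19, 80.0% called), led upward by EGR1 (1.76), CXCL8 (1.36), EPHA4 (1.27) and FOS (1.23). Downward went the AP-1 subunit FOSL1 (-1.60), cyclin D1, CCND1 (-1.39), the cytokine LIF (-0.90) and the chromatin protein HMGA1 (-0.78). Like DUSP1 and IER3, EGR1 and FOS also respond to handling of cells within minutes, and the part of handling was not tested. Other feedback inhibitors rose in 7 of 14 cases and fell in 2 (median 0.34, 64.3% called). CBLB, which marks receptors for destruction (1.03), SOCS3, a brake on cytokine receptors (1.0), SOCS2 (0.52) and SOCS5 (0.52) rose, and RASAL1 (-0.65) and LRIG3 (-0.28) fell. Among 18 other phosphatase genes that act on the pathway 5 rose and 1 fell, PTPN2 (-0.39), with a median of 0.09 and 33.3% called, below the 38.1% of all probe sets. PPP2R5E (0.64), PPM1B (0.34), PPM1A (0.31) and PTPN1 (0.31) rose most.

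**Figure D5:**
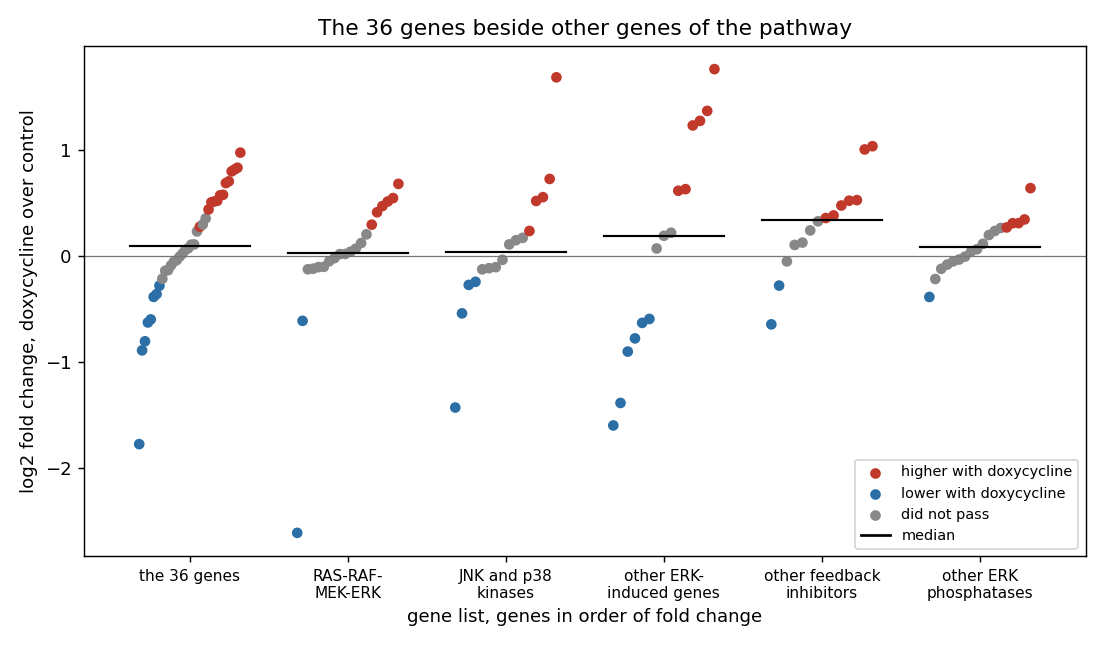
Log2 fold change of doxycycline over control (y axis) for the 36 genes and for 5 lists of other pathway genes (x axis, genes in order of fold change within a list); red was higher, blue lower and grey did not pass, and black lines are medians. RPS6KA2 at -2.61 lies below PHLDA2 at -1.77, the lowest of the 36 genes, and EGR1 at 1.76 and MAP2K6 at 1.68 lie above SPRY1 at 0.97, the highest.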

How the data were processed

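Total RNA was labelled with biotin and hybridised to Clariom S human HT arrays, 1 per sample. The deposited log2 values of 18569 probe sets were made with RMA, per the submitters' processing notes, which corrects background, equalises the distributions of arrays and summarises probes. The RMA version was not given in the sources used here, nor was any filter. A change in total RNA per cell would therefore not be seen, and dim genes have compressed fold changes.

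Gene symbols came from the platform annotation (1 symbol for 17511 probe sets, none for 1058), and all 36 were current in RefSeq. Doxycycline was compared with control in limma 3.58.1 (lmFit, then eBayes; R 4.3.3). The model held a term for group alone, and its two-sided p-values were adjusted by Benjamini-Hochberg across the whole array. Errors are moderated standard errors or SDs, and the number of arrays limits precision. The labels call the arrays biological replicas without naming cultures, so p-values measure the spread between samples, which may be technical. Every one of the 36 genes is named, with up to 4 called genes per direction of each pathway list and the kinases MAP2K1 and MAPK3. The genes, lists, pairs and motifs were chosen with earlier results of these data known. Of 11 strings searched in the promoter windows, 4 were described in detail, chosen after all counts were seen. Alternatives were filters on dim probe sets, median and quantile scaling, a replicate block, other variance settings, array weights, a stricter threshold and leaving out each array. Figures were drawn with matplotlib 3.10.9 in Python 3.11.15.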

Additional observations from a re-analysis of the deposited data

Results flagged for a closer look

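Of 72 groups of 5 arrays (36 genes in 2 groups) 5 held an array far from the other 4 by Dixon's criterion (the gap to the nearest array as a share of the group's range), and chance gives about 1 in 20 groups. With doxycycline, SPRED2 read 7.25 on array 1, against 7.77 to 7.92 on the other arrays. DUSP28 read 3.17 on doxycycline array 4, against 3.59 to 3.65 on the others, and IER3 read 10.82 on doxycycline array 4, against 11.12 to 11.22 on the others. In control, DUSP10 read 7.85 on array 1, against 7.70 to 7.73 on the others, and DUSP7 read 6.10 on array 2, against 5.94 to 5.98 on the others. The rises of DUSP10 and IER3 and the fall of DUSP7 passed without each of these arrays, and the fall of DUSP28 did not pass without doxycycline array 4.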

How the results depend on the processing

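The count of called genes among the 36 was 21 and lay between 17 and 23 under the alternatives (20 to 22 when 1 array was left out), and 19 of the 21 kept their call in every alternative at a threshold of 0.05 in which they were tested. DUSP11 and DUSP28 did not, DUSP11 also with array weights (adjusted p = 0.0580, limma), and DUSP11, DUSP28 and ETV4 missed the threshold of 0.01. The 25 genes left without probe sets under the median signal gave 17 calls, where 60.2% of all 9285 probe sets left were called. With the filter at the 25th percentile 22 of 32 genes were called, against 50% of all 13927 probe sets left. DUSP15 passed with either filter, either scaling, other variance settings and array weights, DUSP19 with median scaling and the block, and DUSP29 with array weights. Leaving out 1 array also gave calls for DUSP15 (control array 2 or doxycycline array 1) and DUSP19 (control array 4 or doxycycline array 5). DUSP2 and DUSP29 passed without doxycycline array 4. At the threshold of 0.01 the calls fell to 2 of 18 for the other phosphatases and 5 of 20 for the ERK cascade. The share called over all probe sets fell from 38.1% to 28.3% at that threshold. Called probe sets over the array ranged from 6378 to 7237 when 1 array was left out, against 7078 with all 10 arrays. They were most without doxycycline array 1. Without 1 array the called genes numbered 6 to 9 for the stress kinase list, 12 to 13 for other ERK-induced genes, 9 to 10 for feedback inhibitors, 4 to 7 for other phosphatases and 6 to 8 for the cascade. The sign of genes that did not pass turned for DUSP26 (0.026 with median scaling, 0.032 with array weights, -0.081 to 0.090 without 1 array), and, with array weights and without 1 array, for SPRED2 (0.043, and -0.093 to 0.076), DUSP5 (-0.020, and -0.022 to 0.055) and DUSP8 (0.0051, and -0.11 to 0.016). DUSP21 ranged from -0.00027 to 0.084 without 1 array. The deviations of same-numbered arrays from their group means correlated at -0.437 to -0.00746. This cannot show whether such arrays shared a culture or handling, which the labels do not state. A replicate block gave 22 calls among the 36 genes, and an exact sign-flip test over the 5 pairs, which cannot go below p = 0.0625, gave an adjusted p of 0.125 for PHLDA1 against PHLDA2 (1.68), SPRY2 against SPRY4 (-0.41) and SPRED1 against SPRED2 (0.31). Median scaling moved the median of all probe sets to 0.08, against 0.04. DUSP19, DUSP21, DUSP26 and DUSP29 averaged below 2.80 in both groups, where fold changes are compressed.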
